A study of Mus musculus with 8 samples.

Results

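Respiratory complex I is the first and largest enzyme of the mitochondrial respiratory chain. It passes electrons from NADH to ubiquinone and pumps protons across the inner membrane, and striated muscle depends on it for sustained ATP supply. Its matrix arm holds the flavin and the iron-sulphur clusters that carry the electrons, and its membrane arm holds the proton pumps, whose central chains are encoded in mitochondrial DNA. All the other chains are encoded in the nucleus: a few core subunits that do the chemistry, and many accessory subunits that surround them and are needed to assemble or stabilise the enzyme. Described here are 35 nuclear genes of complex I subunits, a list set by gene name but made with earlier results of these data known. All 35 were found among the 23008 mouse genes of the deposited table, and all 35 passed the minimum mean of 10 normalised reads used for testing.

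The samples were gastrocnemius, the large calf muscle, of wild-type C57BL/6J mice, with 4 libraries per group. In the m31 group, the mice had received AAV9, an adeno-associated virus that reaches striated muscle from the blood, carrying the epigenome editing construct GNDM with guide m31, which targets Lama1. In the control group they had received the same construct and virus with a guide without a target. Both groups thus carried the virus and the editor, and muscle without them was not analysed here. The normalised level of the GNDM entry was uneven, however. Among m31 libraries, replicate 1 had 12365, replicate 2 had 24487, replicate 3 had 15418 and replicate 4 had 6157. Among control libraries, replicate 1 had 11969, replicate 2 had 13775, replicate 3 had 37989 and replicate 4 had 9802. Control replicate 3 was thus the highest of all libraries and m31 replicate 4 the lowest. The part of this level in the values below was not tested. The virus was given by tail vein, and 11 weeks passed before the muscle was collected. Mice were injected at 7 weeks of age by one label and at 7 to 12 weeks by the design text. Whether the libraries of a group are from different mice is not stated, and the p-values below therefore reflect only how much these libraries varied, which may be technical.

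Sequencing depth, counted as reads in mouse genes, was 34142447 to 37792459 in the m31 libraries. It was 25157486 to 39210248 in the control libraries, where replicates 3 and 4 were the shallowest. Lama1, the targeted gene, stood at 86.5 to 295 normalised reads with m31 and at 0 to 4.18 with the control guide. The defining markers of the labelled tissue were present: the 10 muscle fibre genes, among them Acta1 and Ckm, summed to 4462318 to 5083214 normalised reads with m31, compared with 4192896 to 5587850.3 with the control guide. A pair of libraries stood apart within their groups. The 10 fibroblast and matrix markers summed to 204373 normalised reads in m31 replicate 4 but to 46397 to 64512 in m31 replicates 1 to 3. They summed to 64867 in control replicate 3 but to 35043 to 44871 in control replicates 1, 2 and 4. Results below are given with and without them where they matter.

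The promoters of these genes are shown first, as a description. Whether their motifs bear on the levels described below was not tested. Windows from RefSeq (build GRCm38.p6) were found for 32 of the 35 genes. Each was searched on both strands, over 250 bases before and 50 bases after the start, for the motifs of factors known to act on nuclear respiratory genes. The NRF-1 motif, 10 bases long with 1 position left free and spelled in capitals in Ndufs6 and Ndufa8 below, lay in the windows of 7 of these genes (21.9%), against 4.60% of all 32851 windows. The YY1 motif AAGATGGC lay in 7 (21.9%), against 2.75%. The GABP motif CCGGAAG lay in 4 (12.5%), against 8.86%, and the estrogen-related receptor motif AAGGTCA in 3 (9.38%), against 4.72%. The shares of members count genes, 32 of them with 34 windows, while the shares over all count single windows, so the units differ. A match is a run of letters, not a bound site. Below are the 150 bases from 120 before to 30 after the start of 6 genes, 5′ to 3′ on the gene's strand, with motif matches in capitals. Ndufs3 and Ndufs8 show the GABP motif, Ndufs6 and Ndufa8 the NRF-1 motif and Ndufa3 the YY1 motif at the end of the stretch. Ndufb3, the gene with the smallest p between guides, holds none of the 4 motifs in this stretch.
Ndufs3 (chr2:90904692-90904841, minus strand): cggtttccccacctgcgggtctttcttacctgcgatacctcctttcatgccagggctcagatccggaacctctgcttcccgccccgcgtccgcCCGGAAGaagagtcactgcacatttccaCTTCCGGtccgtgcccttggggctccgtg
Ndufs8 (chr19:3912745-3912894, minus strand): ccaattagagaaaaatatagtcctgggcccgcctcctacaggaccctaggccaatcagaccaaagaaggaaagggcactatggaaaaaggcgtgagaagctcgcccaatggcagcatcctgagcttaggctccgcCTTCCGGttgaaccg
Ndufs6 (chr13:73328453-73328602, minus strand): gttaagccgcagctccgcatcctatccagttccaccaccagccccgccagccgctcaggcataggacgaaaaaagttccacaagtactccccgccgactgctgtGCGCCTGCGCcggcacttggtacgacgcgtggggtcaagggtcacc
Ndufa8 (chr2:36049309-36049458, minus strand): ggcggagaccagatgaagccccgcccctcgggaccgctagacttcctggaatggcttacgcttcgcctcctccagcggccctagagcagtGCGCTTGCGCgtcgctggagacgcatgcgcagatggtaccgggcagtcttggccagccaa
Ndufa3 (chr7:3617253-3617402, plus strand): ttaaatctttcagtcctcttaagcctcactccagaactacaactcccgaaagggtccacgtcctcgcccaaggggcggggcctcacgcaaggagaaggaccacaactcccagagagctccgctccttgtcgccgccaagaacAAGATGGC
Ndufb3 (chr1:58586277-58586426, plus strand): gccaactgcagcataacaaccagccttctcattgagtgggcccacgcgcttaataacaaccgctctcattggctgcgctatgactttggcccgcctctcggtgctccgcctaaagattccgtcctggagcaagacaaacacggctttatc

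Complex I subunit genes were abundant in every library. Together they took 0.396, 0.385, 0.406 and 0.357% of the reads in m31 replicates 1 to 4, and 0.435, 0.413, 0.366 and 0.405% in control replicates 1 to 4. M31 replicate 4 and control replicate 3 were the lowest of their groups, and the groups overlapped. Levels of different genes were compared per kb of the principal transcript of the GENCODE M21 annotation. The highest gene was Ndufb10, of the distal membrane arm, with a mean of 6855 normalised reads per kb with m31, compared with 7159.9 with the control guide. Ndufs7, which holds the last iron-sulphur cluster before ubiquinone, followed with 6618 (m31) and 6781 (control), and Ndufa6 with 6000.4 (m31) and 6572 (control). Of the other genes, 30 were between 1303 and 6395 per kb with the control guide.

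The lowest levels per kb belonged to Ndufab1 and Ndufb2. Where several transcripts of a gene ranked equally as principal, the longest was taken, which lowers the level per kb. Ndufab1, the mitochondrial acyl carrier protein, had 304 normalised reads per kb with m31, compared with 342 with the control guide, over an annotated transcript of 3479 bases. Before division by length, its control mean of 1189 normalised reads was above the 710 of Ndufa11, so its low place rests on the length taken. Reads of Ndufab1 could also be exchanged with its near copies, Gm4459 and Ndufab1-ps. Ndufb2 had 13.2 (m31) and 16.7 (control) over 4371 bases, and rested on 36 to 103 reads per library, where every other member had at least 443. In the annotation, Ndufb2 shares 145 exon bases with Gm42420 on the same strand and 146 with Braf on the opposite strand, and the counting rule for shared bases is not given in the sources used here. The ranks of Ndufab1 and Ndufb2 among the subunits are therefore uncertain.

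**Figure D1:**
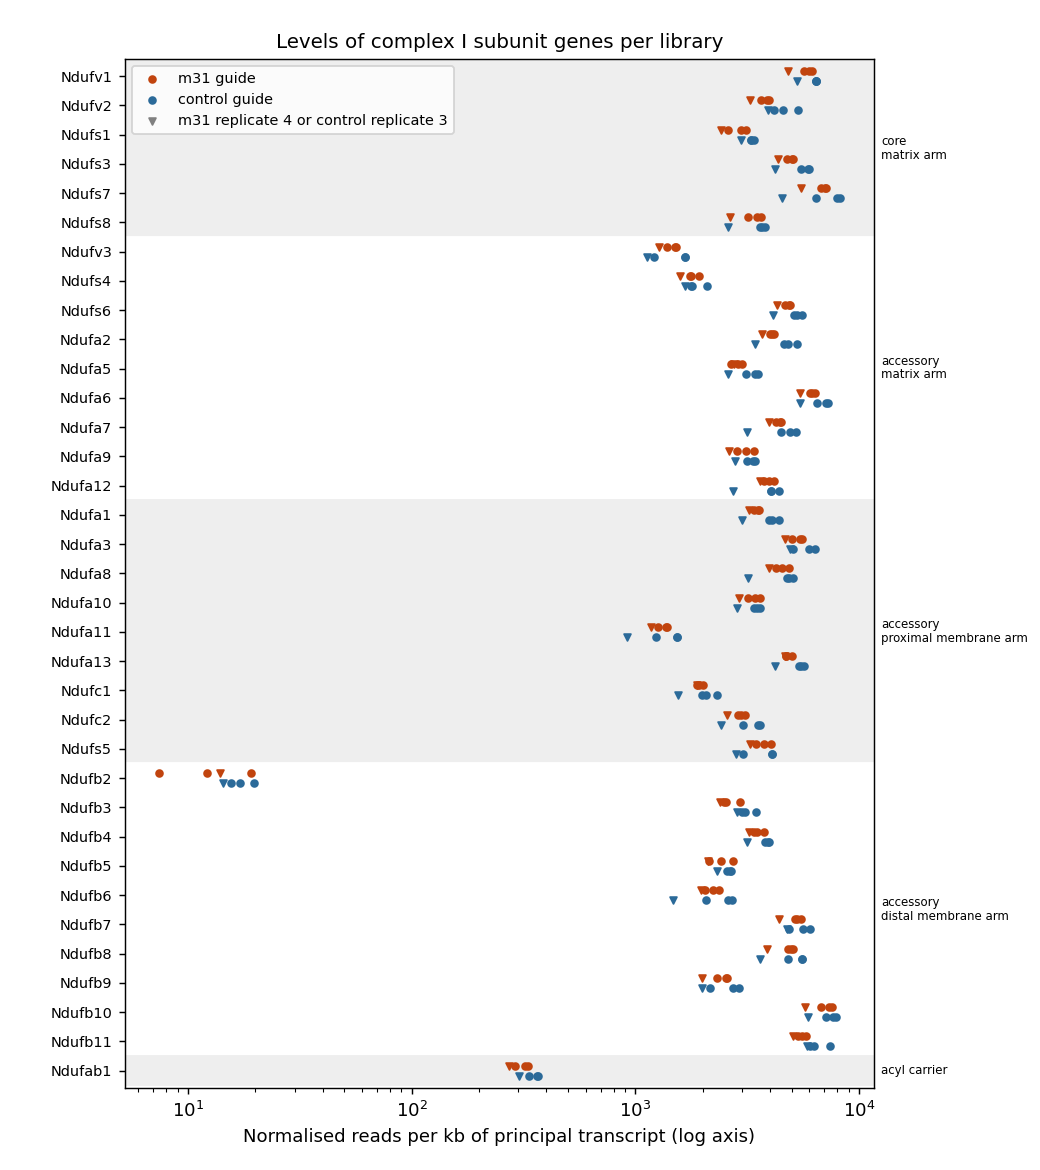
Levels of the 35 complex I subunit genes in every library, in normalised reads per kb of the principal transcript on a log axis, with m31 libraries above control libraries in each row and genes grouped by their place in the complex. Each point is 1 library, and triangles mark m31 replicate 4 and control replicate 3, which lie at or near the low end of their groups for most genes; Ndufb2 stands apart from all others with means of 13.2 (m31) and 16.7 (control).

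No complex I subunit gene passed the test between guides, and the estimates leaned towards lower values with m31. Over all 35 genes the median log2 difference, m31 minus control, was -0.091, against 0.0052 over all 15960 genes tested. The estimate was negative for 30 genes (85.7%) and positive for 5 (Ndufv3, Ndufa12, Ndufa11, Ndufs5 and Ndufb6), against 48.7% negative over all genes. Members share their libraries and move together, so such counts do not stand for independent genes. A score per library took the mean log2 value of the 35 genes, centred on the 8 libraries. It averaged -0.049 ± 0.12 with m31 and 0.049 ± 0.20 with the control guide (SD, n = 4 each). With limma's moderated test and Benjamini-Hochberg adjustment over all genes, 0 members were past the threshold of 0.05, where 0.00627% of all genes were (Lama1 alone), and the smallest adjusted p of a member was 0.698. At an unadjusted p under 0.05 there were 4 members, all lower with m31 (Ndufb3, Ndufv2, Ndufb11 and Ndufs1), or 11.4%, against 6.79% of all genes in either direction and 3.03% in that one. On the recovered reads, edgeR's quasi-likelihood test and DESeq2 also called 0 members, where they called 0.00627% and 0.237% of all genes by adjusted p. Each placed 4 members at an unadjusted p under 0.05, all lower with m31. Over all genes that share was 7.11% with edgeR (3.35% lower with m31) and 7.09% with DESeq2 (3.19% lower). Leaving Ndufb2 aside, the 95% intervals of the log2 differences reached no lower than -0.52 and no higher than 0.38, so a 1.5-fold change in either direction lay outside all of them.

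**Figure D2:**
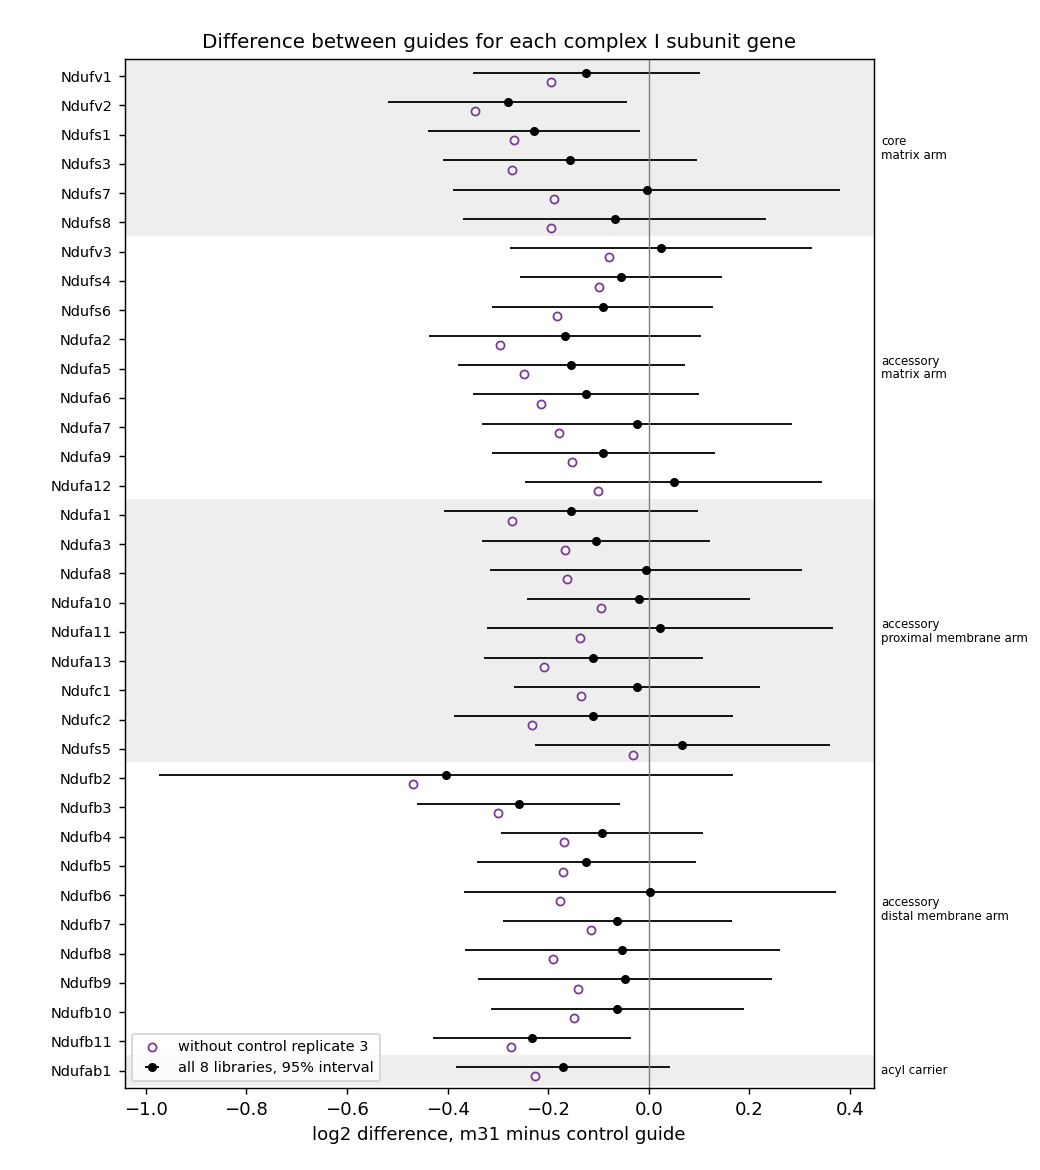
Log2 difference, m31 minus control guide, for each of the 35 genes, grouped by place in the complex. Filled points with bars are estimates and 95% intervals from all 8 libraries, and open circles are estimates without control replicate 3. Below 0 lie 30 filled points and 35 open circles. Control replicate 3 was the lowest control library for all 35 genes, so every open circle lies left of its filled point by construction.

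The 6 listed core subunits of the matrix arm had a median log2 difference of -0.14, with negative estimates for all 6. Ndufv1 binds NADH and the flavin, where electrons enter the enzyme. It stood at 9887, 9424, 10267 and 7964 normalised reads across m31 replicates 1 to 4 and at 10714, 10724, 8808 and 10618 in control replicates 1 to 4. Control replicates 1, 2 and 4 were above every m31 library, while control replicate 3 was below 3 of them, and the log2 difference was -0.12 ± 0.10 (SE). Ndufv2 (ENSMUSG00000024099, GRCm38 chr17:66078638-66101559), which holds the iron-sulphur cluster next to the flavin, stood at 6611, 6187, 6735 and 5498 with m31 and at 7769, 7086, 6633 and 9036 with the control guide. Its groups overlapped only through control replicate 3, which fell between m31 replicates 1 and 3, and its log2 difference of -0.28 ± 0.11 was the largest in the core (limma adjusted p = 0.715).

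Ndufs1 (ENSMUSG00000025968, GRCm38 chr1:63143596-63176833), the largest iron-sulphur subunit, stood at 7905, 6930.1, 8315 and 6399 normalised reads across m31 replicates 1 to 4 and at 8754, 8730.3, 7922 and 9064 in control replicates 1 to 4. M31 replicate 3 reached above control replicate 3, and the difference was -0.23 ± 0.096 (limma adjusted p = 0.720). Ndufs3, a subunit of the part that binds ubiquinone and that is built first, stood at 5255, 4994, 5276 and 4546 with m31 and at 6248, 5745, 4389.8 and 6166 with the control guide. Here control replicate 3 was the lowest of all 8 libraries and the other control libraries were above every m31 library, with a difference of -0.16 ± 0.11. A near copy, Gm12251, was credited with a mean of 338 normalised reads, so some reads of the pair may be misplaced.

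The iron-sulphur subunits nearest to ubiquinone had the estimates closest to 0 in the core. Ndufs7 stood at 6939, 6652, 7034 and 5397 normalised reads with m31 and at 8048, 7845, 4435 and 6334 with the control guide. Its control libraries spanned a wider range than its m31 libraries, on both sides of them, and the log2 difference was -0.0043 ± 0.17; its sign changed with the processing and with the libraries included. Ndufs8, which carries clusters on the path to ubiquinone, stood at 3526, 3197, 3664 and 2674 with m31 and at 3809, 3633, 2614 and 3684 with the control guide, with a difference of -0.068 ± 0.14. It turned slightly positive without m31 replicate 4.

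Of the 9 accessory subunits of the matrix arm, 7 had negative and 2 positive estimates, with a median of -0.090 and a range of -0.17 to 0.049. Ndufa5, which sits on the ubiquinone-binding part, stood at 2515, 2347, 2635 and 2409 normalised reads with m31 and at 3101, 2737, 2260.1 and 2993 with the control guide. Ndufa2, which lies by the electron entry part, stood at 2382, 2293, 2335 and 2106 with m31 and at 3013, 2752, 1953 and 2636 with the control guide. Ndufa6, a LYR-motif protein that anchors an acyl carrier to the matrix arm, stood at 3750.1, 3566, 3623 and 3222 with m31 and at 4309, 4189.6, 3199 and 3812 with the control guide. In all 3 genes every m31 library was below control replicates 1, 2 and 4 and above control replicate 3. Their differences were -0.15 ± 0.10, -0.17 ± 0.12 and -0.12 ± 0.10 (SE). Among the rest, Ndufs4, whose loss in mice gives a model of Leigh syndrome, had a log2 difference of -0.055, and Ndufs6, a zinc-binding subunit, of -0.091. Ndufa9, at the junction of the arms, had -0.090, Ndufa7 -0.023, Ndufv3 0.025 and the late-joining Ndufa12 0.049.

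The 9 accessory subunits of the proximal membrane arm had the median closest to 0 of the role groups, a log2 difference of -0.023 and a range of -0.15 to 0.067; whether this group differed from the others was not tested. Ndufa1, a small subunit encoded on the X chromosome, stood at 1496, 1427, 1486 and 1345 normalised reads with m31 and at 1837, 1663, 1254 and 1709.6 with the control guide. Ndufa13, also known as GRIM-19, stood at 6302, 5871, 5898 and 5824 with m31 and at 7077, 6851, 5264 and 6764 with the control guide. In both genes the m31 libraries lay between control replicate 3 and the other control libraries, with differences of -0.15 ± 0.11 and -0.11 ± 0.099 (SE). Ndufa3 stood at 2801, 2582, 2876 and 2407 with m31 and at 3291, 3079, 2519 and 2622 with the control guide, with the groups interleaved. The remaining estimates ran from -0.11 for Ndufc2 through -0.023 for Ndufc1, -0.020 for Ndufa10, a kinase-like subunit, -0.0054 for Ndufa8, of the intermembrane face, and 0.023 for Ndufa11 to 0.067 for Ndufs5.

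The distal membrane arm held the gene with the smallest p and the single gene whose groups did not overlap. Ndufb3 (ENSMUSG00000026032, GRCm38 chr1:58586384-58595964) stood at 1948, 1901, 2236 and 1821 normalised reads across m31 replicates 1 to 4 and at 2359, 2291, 2163 and 2645 in control replicates 1 to 4. M31 replicate 3 alone reached above a control library, replicate 3, and the log2 difference was -0.26 ± 0.092 (limma adjusted p = 0.698). Ndufb3 and Ndufb11 each have a near copy elsewhere in the genome (Gm45930 and Gm6444), with which reads could be exchanged. Ndufb11 (ENSMUSG00000031059, GRCm38 chrX:20615326-20617619) stood at 5258, 4821, 5031 and 4605 with m31 and at 5717, 5505, 5298 and 6705 with the control guide. Every m31 library was below every control library, the nearest being m31 replicate 1 and control replicate 3. Of all genes, 2.02% were lower with m31 without overlap and 1.84% higher, and 1 and 0 of 35 members are close to those shares. Its difference was -0.23 ± 0.089 (limma adjusted p = 0.715), and 117 of its exon bases are shared with Rbm10 on the opposite strand.

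The other distal subunits had estimates from -0.12 for Ndufb5 to 0.0021 for Ndufb6, with Ndufb2 outside that range. Ndufb2, the low gene described above, stood at 53.2, 32.3, 83.7 and 60.9 normalised reads with m31 and at 86.2, 74.4, 62.9 and 68.0 with the control guide, a difference of -0.40 ± 0.26 (SE). Its m31 libraries spread from below to within the control range. Between these were Ndufb4 at -0.093, Ndufb7 at -0.062, Ndufb10 at -0.062, Ndufb8 at -0.052 and Ndufb9, which binds the second acyl carrier of the enzyme, at -0.047. Ndufb4 has a copy, Ndufb4c, identical over 390 bases, that was itself credited with a mean of 2051 normalised reads, so reads of the pair cannot be assigned with certainty. The carrier itself, Ndufab1, which also serves lipoic acid and iron-sulphur cluster synthesis, stood at 1119.6, 1005, 1156 and 949 with m31 and at 1269, 1162, 1055 and 1271 with the control guide, a difference of -0.17 ± 0.096.

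Control replicate 3 decided much of this picture. It was the lowest control library for all 35 members, and lower than every m31 library for 21. M31 replicate 4 was the lowest m31 library for 33. Control replicate 1 was the highest of all 8 libraries for 22 members, and no member was highest in m31 replicate 1, 2 or 4. As a score (the mean log2 value of the 35 genes, centred on the 8 libraries), complex I stood at 0.033, -0.093, 0.056 and -0.19 across m31 replicates 1 to 4 and at 0.21, 0.14, -0.24 and 0.089 in control replicates 1 to 4. The 4 role groups moved alike: control replicate 3 scored -0.23 on the core, -0.27 and -0.31 on the accessory subunits of the matrix and proximal membrane arms, and -0.18 on the distal arm.

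Because control replicate 3 was the lowest control library for all 35 members, leaving it out lowers every estimate by construction. Its removal can likewise only add members that lie lower without overlap. The shares over all genes given here include genes not lowest in that library, so they are not a like baseline. Without control replicate 3, the estimate was negative for all 35 members, with a median log2 difference of -0.18 and a range of -0.47 (Ndufb2) to -0.032 (Ndufs5). Over all 15942 genes tested in those 7 libraries the median was 0.00108, and 49.8% were negative. In 14 members (40.0%) all 4 m31 libraries then lay below all 3 control libraries, against 6.76% of all genes, and in 0 members above them, against 5.48%. These 14 were the core genes Ndufv1, Ndufv2, Ndufs1 and Ndufs3, the matrix arm genes Ndufs6, Ndufa2, Ndufa5 and Ndufa6, the membrane arm genes Ndufa1, Ndufa13, Ndufb3, Ndufb4 and Ndufb11, and Ndufab1. At an unadjusted p under 0.05 there were 14 members, all lower with m31, against 11.9% of all genes in either direction and 5.56% in that one. These were the genes just named, except that Ndufc2, whose groups overlapped, took the place of Ndufv1. By limma's adjusted p 0 members passed, where 0.00627% of all genes did, with a smallest member adjusted p of 0.317, for Ndufa2. Members share their libraries and move together, so these counts do not stand for independent genes. Without both control replicate 3 and m31 replicate 4, 34 estimates were negative, against 49.9% of all genes, and the median was -0.12. In 14 members the m31 libraries were then below the control libraries without overlap, against 8.7% of all genes, and in 0 above them, against 8.5%. An unadjusted p under 0.05 was reached by 9 members, against 10.9% of all genes, 4.76% of all genes being lower with m31 at that level. By limma's adjusted p, 0 members passed, against 0.0189% of all genes, and the smallest was 0.291. Without m31 replicate 4 alone the median was -0.047 and 21 estimates were negative. Leaving out control replicate 1 gave a median of -0.049 and 23 negative estimates, and leaving out control replicate 2 gave -0.069 and 22. The median was -0.11 with 33 negative estimates without m31 replicate 1, -0.083 with 29 without m31 replicate 2, -0.11 with 33 without m31 replicate 3 and -0.087 with 30 without control replicate 4.

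**Figure D3:**
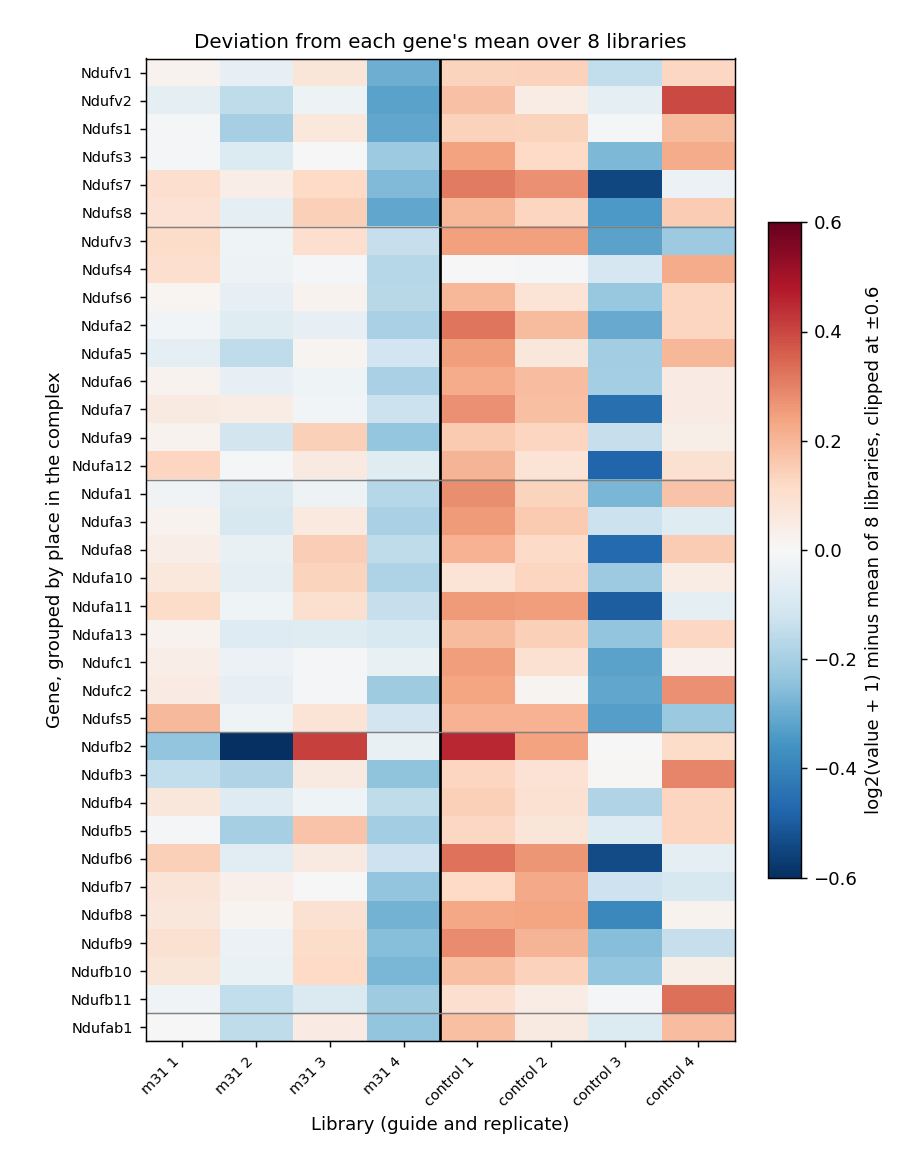
Deviation of each complex I gene (rows, grouped by place in the complex from core at the top to Ndufab1 at the bottom) from its own mean over the 8 libraries (columns, m31 left of the line, control right), on the log2(value + 1) scale, with colours clipped at ±0.6. M31 replicate 4 and control replicate 3 are low in most rows (scores -0.19 and -0.24), and control replicates 1 and 2 are high (0.21 and 0.14).

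Beside this shared movement, single genes kept their own pattern. After each library's mean over the members was removed, control replicate 3 was lowest for Ndufs7 (-0.31 on the log2 scale), Ndufb6 (-0.30) and Ndufa11 (-0.25) and highest for Ndufb3 (0.25) and Ndufs1 (0.24), apart from the low-count Ndufb2. Control replicate 4 was lowest for Ndufs5 (-0.31) and Ndufv3 (-0.31) and highest for Ndufv2 (0.31) and Ndufb11 (0.24). Ndufb3 had a positive deviation in control replicate 4 too (0.21), as had Ndufv2 and Ndufb11 in control replicate 3 (0.19 and 0.23) and Ndufs1 in control replicate 4 (0.10). Ndufb3, Ndufv2, Ndufb11 and Ndufs1 are the genes with the smallest p for lower values with m31, so high values of theirs in control libraries are built in by how they were singled out. Across the 35 members, these deviations ran with the GC content of the transcript at Pearson's r = -0.48 in control replicate 3 and -0.44 in control replicate 4, the shallowest libraries, and at 0.42 and 0.47 in m31 replicates 1 and 2 and 0.48 in control replicate 2. In m31 replicates 3 and 4 and control replicate 1 they were -0.082, -0.078 and 0.078. With transcript length, r was -0.34, -0.56, 0.42 and -0.019 across m31 replicates 1 to 4 and -0.16, -0.21, 0.46 and 0.24 across control replicates 1 to 4. The long Ndufb2 weighs in these. Without it, r with length was -0.096, -0.37, 0.16 and -0.21 across m31 replicates 1 to 4. Across control replicates 1 to 4 it was then -0.51, -0.37, 0.39 and 0.26. With GC content, r without Ndufb2 was 0.34, 0.60, 0.14 and 0.016 across m31 replicates 1 to 4. Across control replicates 1 to 4 it was then 0.26, 0.58, -0.44 and -0.45. These correlations are across genes that share a library and carry no p; the part of GC content or length in the difference between guides was not tested.

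The other genes of the pathway were taken from lists set by name, also with earlier results of these data known. The assembly factors build complex I and leave it. Of 19, 0 passed the test in either direction, 14 had negative estimates, and the median log2 difference was -0.025. Ndufaf5, which modifies Ndufs7, stood at 615, 621, 586 and 631 normalised reads across m31 replicates 1 to 4 and at 880.5, 777, 523 and 744 in control replicates 1 to 4 (-0.23 ± 0.14, SE). Control replicate 3 was again below every m31 library and the other control libraries above them. Ndufaf6 and Ndufaf7 had differences of -0.16 ± 0.13 and -0.12 ± 0.10.

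The 7 subunits encoded in mitochondrial DNA are the proton-pumping and ubiquinone-binding chains of the membrane arm. Their scores were 0.035, -0.048, 0.25 and -0.16 in m31 replicates 1 to 4 and 0.0027, -0.15, -0.097 and 0.17 in control replicates 1 to 4. Of these, 0 passed, 4 had positive and 3 negative estimates, and the median was 0.00889. Mt-Nd5, a proton-pumping chain of the distal membrane arm, averaged 305406 ± 45782 normalised reads with m31, compared with 260450.3 ± 9942 with the control guide (SD, n = 4 each), a log2 difference of 0.22 ± 0.14 (SE). Mt-Nd4l had 0.20 ± 0.11, and mt-Nd6, the chain encoded on the other strand, -0.098 ± 0.14. Whether the mitochondrial and nuclear subunits differed in their response was not tested.

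Nuclear subunits of complexes II to V, the rest of the respiratory chain and ATP synthase, leaned the same way. Of 36, 0 passed the test, 34 had negative estimates, against 48.7% of all genes, and the median log2 difference was -0.090. Without control replicate 3 all 36 were negative, against 49.8% of all genes, with a median of -0.20. In 14 every m31 library was then below all remaining control libraries, against 6.76% of all genes, and in 0 above them, against 5.48%. Control replicate 3 also scored lowest on this list (-0.24), so leaving it out lowers the mean estimate by construction. Uqcrq, of complex III, averaged 6515 ± 752 normalised reads with m31, compared with 7586 ± 331 with the control guide (SD, n = 4 each). Atp5h, of ATP synthase, and Cox7b, of complex IV, had log2 differences of -0.23 ± 0.11 and -0.21 ± 0.11 (SE). No test set complex I apart from these complexes. Ndufa4, once counted as a complex I subunit and now placed in complex IV, had a log2 difference of -0.086 ± 0.11, and its paralogue Ndufa4l2 of 0.077 ± 0.15. Of 8 regulators of respiratory genes 0 passed and 6 had positive estimates. Gabpb1 and Gabpa, the chains of GABP, had 0.19 ± 0.11 and -0.13 ± 0.11, and Esrra, an estrogen-related receptor, 0.11 ± 0.13. Ppargc1a, the coactivator known as PGC-1alpha that raises respiratory genes in muscle, is named here after its values were seen. It stood at 1864, 1659.5, 1905 and 1103 normalised reads across m31 replicates 1 to 4 and at 866, 809, 3369 and 2095 across control replicates 1 to 4. Control replicate 3, the lowest control library on complex I, was the highest control library for it. M31 replicate 4, the lowest m31 library on complex I, was also the lowest m31 library for it. The part of Ppargc1a in the complex I values was not tested.

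Markers of fibre type and of other cells also differed between these libraries. In bulk muscle, fewer fibres of a type and less RNA per fibre cannot be told apart. The score of the 10 slow and oxidative fibre genes was -0.19, -0.11, 0.32 and -0.84 in m31 replicates 1 to 4 and 0.31, 0.31, -0.012 and 0.21 in control replicates 1 to 4, all 10 estimates were negative, with a median log2 difference of -0.39, and 0 passed. The 10 general muscle fibre genes, which are not respiratory genes, leaned the same way: all 10 estimates were negative and 0 passed, with a median of -0.081, and of -0.16 without control replicate 3, where 10 were negative. Their scores were -0.0064, -0.12, 0.079 and -0.20 with m31 and 0.10, 0.16, -0.13 and 0.11 with the control guide, lowest in m31 replicate 4 and control replicate 3 as for complex I. By the sum of normalised reads, control replicate 3 was again the lowest control library. The lowest m31 library by the sum was replicate 3 (4462318), with replicate 4 at 4681436. The fibroblast and matrix score was -0.21, 0.046, -0.017 and 1.64 with m31 and -0.43, -0.65, 0.33 and -0.69 with the control guide, with all 10 estimates positive and 0 past the test. The macrophage markers, 12 of 12 measured and none of them at 0, summed to 4052 to 9761 normalised reads with m31, compared with 2944 to 6897 with the control guide; their scores were 0.022, 0.24, -0.18 and 1.09 with m31 and -0.48, -0.74, 0.56 and -0.52 with the control guide. M31 replicate 4 and control replicate 3, lowest on complex I within their groups, were thus the highest within their groups on the fibroblast and matrix and the macrophage lists, whose median log2 differences were 0.89 and 0.49. The medians of the other marker lists were 0.74 for tendon, 0.076 for endothelium, 0.071 for adipocytes, -0.38 for Schwann cells and nerve and -0.46 for blood. The part of fibre type and of other cells in the complex I values was not tested.

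**Figure D4:**
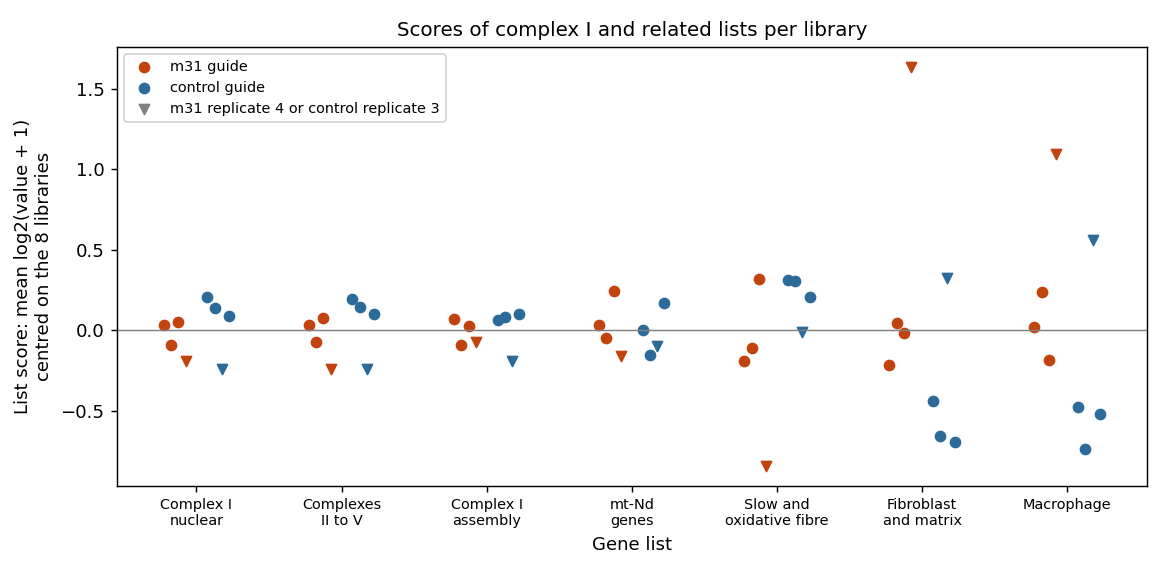
Score per library (mean log2(value + 1) of a list, centred on the 8 libraries) for complex I nuclear subunits, related lists and marker lists, with m31 libraries left of control libraries in each column of points. Triangles mark m31 replicate 4 and control replicate 3, which are lowest within their groups on complex I (-0.19 and -0.24) and highest on the fibroblast and matrix list (1.64 and 0.33).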

How the data were processed

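Total RNA of gastrocnemius was made into libraries with an RNeasy and a NEBNext Ultra kit, per the labels' protocols. The signal values deposited by the authors are normalised reads: each library's counts over its own size factor. STAR, DESeq2 and the human build GRCh38.p12 are named in the submitters' processing notes, without versions, while the identifiers are mouse Ensembl. No source used here names the counting program, strand setting or filters. Of 11 value columns, 8 matched the libraries in the labels and 3 were not used. Construct entries (5, 0.0230 to 0.142% of the signal) stayed out of tests and totals. Symbols were matched for 22979 of 23008 identifiers. In each library 100% of values were whole multiples of 1 read within 0.01 of a read, which gave the reads and the depth.

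The test was limma's (version 3.58.1, R 4.3.3) on the log2(value + 1) scale, with an intensity trend and no covariate, over 8 libraries and the 15960 genes whose mean was 10 or more. Benjamini-Hochberg adjustment covered all of these genes. Every difference is taken as m31 minus control. The procedure was tested on simulated data to check the code. The outcome is not given here and is not used as support for the absence of called members. edgeR 4.0.16 and DESeq2 1.42.0 were run on the recovered reads. Further alternatives were other pseudocounts and minimums, quantile, median and TMM scaling, library weights, the replicate number as a block, and leaving out libraries. The members and lists were chosen with earlier results of these data known. Named with values per library are the core genes and the 3 members of each other role group with the smallest unadjusted p; of related lists, the 3 smallest. Genes outside this rule are named with their estimate, or were chosen after their values were seen. Coordinates, lengths and overlaps are from GENCODE M21 (GRCm38); near copies are transcripts of other genes with at least 95% identity over 150 bases (BLAST 2.17.0). By that rule 8 members have a near copy, and 15 share exon bases with another gene, so their reads may be split. Read counts of members other than Ndufb2 are high, so the spread between libraries rather than counting error sets the precision.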

Additional observations from a re-analysis of the deposited data

Results flagged for a closer look

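In groups of 4 libraries, a value was picked out where its gap to the nearest library took up more of the group's range than Dixon's 95% critical value, which chance does in about 1 in 20 groups. Of 70 groups (35 genes with each guide), 3 met this, about as many as chance gives. Ndufv1, the NADH-binding subunit, stood at 8808 normalised reads in control replicate 3, where the rest of the control libraries held 10618 to 10724. Ndufs8, an iron-sulphur subunit, stood at 2614 in the same library, against 3633 to 3809. Ndufa13 stood at 6302 in m31 replicate 1, where the rest of the m31 libraries held 5824 to 5898. No library was left out of the main comparison for these values.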

How the results depend on the processing

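Under all 20 alternatives run, 0 complex I members passed the adjusted threshold; the smallest adjusted p of a member in any of them was 0.230, with library weights, where 13 members had an unadjusted p under 0.05, all lower with m31 (all genes: 13.8% in either direction, 6.11% lower), and all 35 estimates were negative. The median log2 difference of the members stayed negative, from -0.16 (library weights) to -0.074 (quantile normalisation), and with 1 library left out from -0.18 (without control replicate 3) to -0.047 (without m31 replicate 4). Members with non-overlapping groups, all lower with m31, numbered 1 (2.02% of all genes were lower so). They were 2 after quantile normalisation (all genes 2.35%) and 0 after recentring on library medians (all genes 3.11%). With 1 library left out they were 1 to 14: 5 without m31 replicate 3 (all genes 3.51%), 14 without control replicate 3 (all genes 6.76%) and 1 in each of the rest (all genes 3.01% to 3.92%). Without both m31 replicate 4 and control replicate 3 they were 14 (all genes 8.7%); with fewer libraries, groups overlap less by construction. Genes past the threshold among all tested were 1, 37 with DESeq2, 1 to 2 with 1 library left out and 3 without both of those libraries. For the 16 members named with values per library, 315 of 320 estimates kept their sign and their side of the threshold. The 5 others changed sign: Ndufs7 was 0.030 after quantile normalisation and 0.083, 0.099 and 0.087 without m31 replicate 4, control replicate 1 or control replicate 2, and Ndufs8 0.025 without m31 replicate 4; the cause was not tested. With 1 library left out, Ndufs7 ran from -0.19 to 0.099 and Ndufs8 from -0.19 to 0.025. Replicate numbers did not pair the libraries: deviations of same-numbered libraries correlated at 0.046, -0.047, -0.13 and -0.18. With the replicate block, the members' median was -0.091, 0 members and 1 gene in all passed, and 1 member had an unadjusted p under 0.05 (all genes 5.43%). Depth limits Ndufb2 alone among the members, at 36 to 103 reads per library.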
